A study of Arabidopsis thaliana with 12 samples.

Results

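The tonoplast intrinsic proteins (TIPs) of Arabidopsis thaliana were examined in dissected inflorescence meristems, the growing tips that form flowers. They were chosen by locus identifier as 7 genes. They were TIP1;1 (AT2G36830, annotated as gamma-TIP and called so here), TIP1;2 (AT3G26520), TIP1;3 (AT4G01470), TIP2;1 (AT3G16240, annotated as delta-TIP and called so here), TIP2;2 (AT4G17340), TIP2;3 (AT5G47450) and TIP4;1 (AT2G25810). Of these, 6 were among the 25424 genes of the count table, and TIP2;3 is not analysed here. All 6 passed the filter on low counts, which kept 21897 genes. RNA sequencing covered 12 libraries in 4 groups of 3: wild-type col0 plants and pip2 mutants, each in low and in high air humidity. The labels name the mutant pip2 or pip2d and the design text pip2;5, with no allele. They do not give the humidity values or the age of the plants. They do not say whether replicates came from separate pools of plants. Each p-value therefore sets a difference only against the spread of these libraries, which may be technical.

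TIPs are channels of the tonoplast, the membrane around the vacuole, and belong to the aquaporin family. They let water pass between cytosol and vacuole, and several also conduct small solutes such as urea, ammonia or hydrogen peroxide, which helps growing cells enlarge their vacuoles and adjust their osmotic balance. An aquaporin chain carries a pair of short NPA motifs (asparagine, proline, alanine) that meet in the middle of the pore. The residue after the second motif lines the narrowest part of the channel, called the aromatic/arginine filter.

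The coding sequence around the second NPA motif is shown because it separates the members by channel type. It is printed in RefSeq's TAIR10.1 sequence, 5′ to 3′ on the coding strand, with the NPA codons and the next codon in capitals.
gamma-TIP: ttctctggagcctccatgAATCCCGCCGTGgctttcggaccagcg
TIP1;2: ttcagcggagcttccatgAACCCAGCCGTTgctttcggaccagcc
TIP1;3: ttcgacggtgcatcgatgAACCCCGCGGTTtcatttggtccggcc
delta-TIP: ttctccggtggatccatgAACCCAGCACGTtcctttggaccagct
TIP2;2: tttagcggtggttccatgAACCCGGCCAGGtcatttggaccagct
TIP4;1: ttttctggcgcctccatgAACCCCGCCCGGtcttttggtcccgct
The codon after the motif reads valine in the first 3 sequences, the TIP1 type, and arginine in the last 3. The open reading frames run from 750 to 762 bases. The nearest listed pair was gamma-TIP and TIP1;2, with 81.1% identical coding positions and a longest identical run of 29 bases. TIP2;2 and TIP2;3 shared 81.5% and a run of 26 bases, and the farthest pair 55.6%.

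Library totals ran from 17850187 to 28445060 counts, and log2 CPM (counts scaled to library size) of libraries in a group correlated at 0.982 to 0.990 across genes. PIP2;5, the plasma membrane aquaporin of that name, had 974 to 1509 counts in the col0 libraries and 11 to 25 in the pip2 libraries. Its log2 fold change for pip2 against col0 was -6.48 ± 0.15 (SE) at low and -5.70 ± 0.15 at high humidity (edgeR quasi-likelihood test with Benjamini-Hochberg adjustment, adjusted p = 5.34e-12 and 2.09e-11). Of 7 meristem markers 6 were listed, and CLV3 was not among the listed genes. The means of the 6 ran from 2.55 TPM (transcript level scaled for length and depth) for LFY to 79.0 TPM for AP1. WUS averaged 28.4 TPM and STM 26.3 TPM. All 10 pollen markers, all 7 vascular markers and all 8 green tissue markers had reads too. The highest means in these lists were 580 TPM for VGD1 (pollen), 86.6 TPM for XCP2 (vascular) and 7467 TPM for RBCS1A (green tissue). In such bulk samples fewer cells of a type and less RNA per cell cannot be told apart.

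Gamma-TIP, delta-TIP and TIP1;2 made up nearly all the TIP mRNA of the meristems. On the TPM scale, which corrects for transcript length, gamma-TIP, a water channel of growing and mature tissues, averaged 1115 TPM over the 12 libraries. It ranked 52 among the 22887 genes with a TPM value. Delta-TIP, a channel for water and ammonia, averaged 1052 TPM and ranked 61. TIP1;2, the closest relative of gamma-TIP, averaged 938 TPM and ranked 73. These 3 genes held between 97.5% ± 0.43 (SD, n = 3, pip2 low) and 98.5% ± 0.13 (col0 high) of the summed TIP level. The ranges of these 3 genes over the libraries overlapped.

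The other members were far lower. TIP1;3, known from pollen, where it conducts water and urea, averaged 38.0 TPM. TIP2;2, best known from roots, averaged 16.6 TPM. TIP4;1, also known from roots and as a channel for water and urea, averaged 6.53 TPM. Of the TIP genes outside the chosen set, TIP5;1, another pollen TIP, was listed at 12.6 to 20.4 TPM. Each of the 3 abundant genes lay above each of these in all 12 libraries, and TIP4;1 was the lowest in all 12. TIP1;3 lay above TIP2;2 in 11 of 12.

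The order of gamma-TIP and delta-TIP depended on the scale. By TPM, the ratio of delta-TIP to gamma-TIP was 0.853 ± 0.021 (SD, n = 3) in col0 at low humidity, 0.997 ± 0.061 at high humidity, 0.842 ± 0.019 in pip2 at low humidity and 1.05 ± 0.05 at high humidity. With counts per kilobase of annotated exon in their place, the same ratios were 1.08 ± 0.03, 1.26 ± 0.07, 1.06 ± 0.02 and 1.33 ± 0.06, and delta-TIP was the higher gene in every library. On both scales the ratio was higher at high humidity, and the libraries of the 2 humidities did not overlap in either genotype. Both scales rest on the same reads, and their ratios differ by a nearly fixed factor, so this agreement is not separate evidence.

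Delta-TIP also has annotated neighbours on the opposite strand. The antisense gene AT3G03265 had 187 to 461 counts, or 1.23% to 1.88% of the delta-TIP count. Its TPM was nevertheless 525 to 930, or 0.659 to 0.742 times that of delta-TIP. PnsB3, a subunit of a chloroplast complex, overlaps it as well and had 3.59% to 6.95% of its count. The sources used here do not give the strand setting of the counting. It is therefore not known whether reads of the overlapping stretches were separated by strand, and levels by TPM between delta-TIP and other members are uncertain. The other listed members overlapped no annotated gene. In col0 low replicate 1, delta-TIP had 944 TPM and 660 CPM per kilobase of exon, and gamma-TIP 1136 and 627. TIP4;1, without an overlapping gene, had 9.23 and 6.54. Relative to its level, the gap between scales was wider for gamma-TIP than for delta-TIP or TIP4;1. Levels of TIP4;1 by TPM against other members are thus uncertain too, and the cause was not tested.

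**Figure D1:**
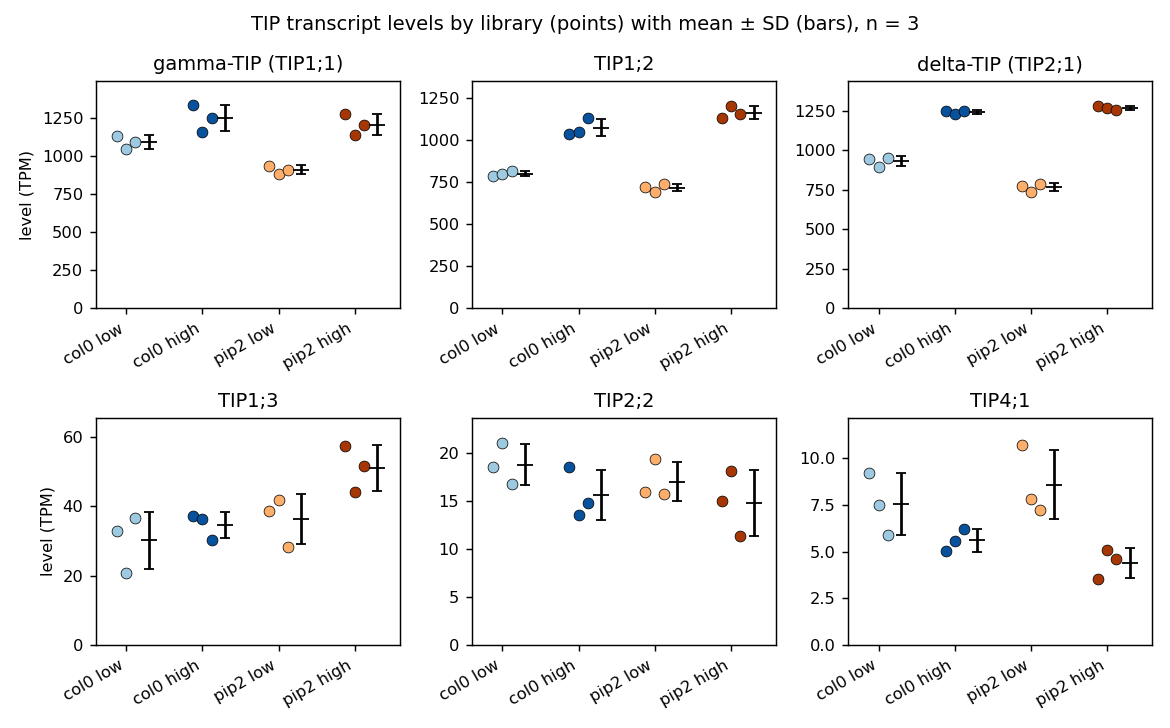
Level in TPM (vertical axes, from 0, a separate scale for each gene) of the 6 listed members in each library (points) of the 4 groups, with mean ± SD beside them (n = 3). The 3 abundant genes were higher in every high-humidity library than in any low-humidity library of the same genotype. TIP4;1 was lower in every high-humidity library of pip2 than in any low-humidity one.

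The 3 abundant genes rose at high humidity in col0. These were 3 of the 6 members, while 30.2% of all tested genes were called. Called higher were 14.3% of all tested genes, and 0 of 6 members were called lower, against 15.8%. The median log2 fold change of the members was 0.17, beside 0.00 for all tested genes. In 4 of 6 the groups did not overlap, against 44.8% of all tested genes.

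Delta-TIP stood at 944, 897 and 953 TPM in the low-humidity libraries of col0 and at 1249, 1228 and 1249 TPM in the high-humidity libraries. The groups were clearly apart and each was tight. The log2 fold change on counts was 0.40 ± 0.06 (SE), a 1.32-fold rise (edgeR quasi-likelihood test, adjusted p = 0.000175). TIP1;2 stood at 787, 800 and 814 TPM at low and at 1037, 1048 and 1131 TPM at high humidity. Here too every high library lay above every low one. The log2 fold change was 0.41 ± 0.06, a 1.33-fold rise (edgeR, adjusted p = 0.000274).

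Gamma-TIP moved least of the 3. Its levels were 1136, 1046 and 1094 TPM at low and 1334, 1161 and 1253 TPM at high humidity, so that the lowest high library was only just above the highest low one. The log2 fold change was 0.18 ± 0.06 (edgeR, adjusted p = 0.0453). This call was lost in 12 of 19 alternative analyses, among them each removal of col0 low replicate 1, 2 or 3, of col0 high replicate 1 or 3, of pip2 low replicate 2 or 3, and of pip2 high replicate 3. Without col0 high replicate 1 the log2 fold change was 0.12 (adjusted p = 0.189), and over the removals it ran from 0.12 to 0.25.

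The low members did not pass the test in col0. AT2G25810, the lowest member, stood at 9.23, 7.50 and 5.91 TPM at low and 5.03, 5.56 and 6.21 TPM at high humidity by the authors' TPM. The TPM groups overlapped, while the CPM groups used for the count of non-overlapping genes did not. Its log2 fold change was -0.44 ± 0.18 (edgeR, adjusted p = 0.0885, or 0.0454 without col0 low replicate 3). TIP2;2 had a log2 fold change of -0.28 ± 0.18 (adjusted p = 0.258) and TIP1;3 of 0.16 ± 0.18 (adjusted p = 0.549), and the groups of each overlapped.

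The 3 abundant genes rose in pip2 as well, and TIP4;1 fell. These were 4 of 6 members, while 24% of all tested genes were called. The 3 rises compare with 12.3% of all tested genes called higher, and the 1 fall with 11.7% called lower. The median of the members was 0.48, beside 0.01 for all tested genes. In 5 of 6 the groups did not overlap, against 38.1%.

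Delta-TIP stood at 776, 738 and 788 TPM in pip2 at low humidity and at 1280, 1267 and 1255 TPM at high humidity. The gap between the groups was many times the spread within them. Its log2 fold change was 0.76 ± 0.06, a 1.69-fold rise (edgeR, adjusted p = 7.67e-07). TIP1;2 stood at 722, 693 and 736 TPM at low and at 1129, 1201 and 1155 TPM at high humidity, again with no overlap. Its log2 fold change was 0.72 ± 0.06, a 1.65-fold rise (edgeR, adjusted p = 2.47e-06). Gamma-TIP stood at 939, 882 and 913 TPM at low and at 1276, 1143 and 1205 TPM at high humidity. Every high library was above every low one, and the log2 fold change was 0.43 ± 0.06, a 1.35-fold rise (edgeR, adjusted p = 0.000334). All 3 calls held in all 19 alternative analyses.

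The antisense gene AT3G03265 had log2 fold changes of 0.43 ± 0.16 in col0 (edgeR, adjusted p = 0.0591) and 0.58 ± 0.16 in pip2 (adjusted p = 0.0189). PnsB3 had log2 fold changes of -0.20 ± 0.09 (adjusted p = 0.0966) and -0.10 ± 0.09 (adjusted p = 0.462). The part of these genes in the delta-TIP result was not tested beyond their share of counts.

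AT2G25810 (TIP4;1) stood at 10.7, 7.81 and 7.25 TPM in pip2 at low and at 3.51, 5.10 and 4.60 TPM at high humidity. The groups did not overlap, although the counts behind these values were small, 132 to 182 at low and 59 to 111 at high humidity. The log2 fold change was -0.87 ± 0.19, a 1.83-fold fall (edgeR, adjusted p = 0.00396), and it passed the test in all 19 alternatives.

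TIP1;3 stood at 38.6, 41.9 and 28.2 TPM at low and at 57.3, 44.0 and 51.7 TPM at high humidity in pip2. The groups did not overlap, but the lowest high library was close to the highest low one. Its log2 fold change of 0.53 ± 0.18 just missed the threshold (edgeR, adjusted p = 0.05001). It passed with DESeq2 (adjusted p = 0.0187), with only the 2 groups compared in the fit (0.0275), with a replicate block (0.0332) and in 5 of 12 removals of a library. Those were col0 low replicate 2 or 3, col0 high replicate 3, pip2 low replicate 2 and pip2 high replicate 2, and over the removals the log2 fold change ran from 0.38 to 0.67. TIP2;2 had a log2 fold change of -0.15 ± 0.18 (edgeR, adjusted p = 0.602), with overlapping groups.

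Markers of pollen, the tissue in which TIP1;3 is best known, also had a higher mean sum at high humidity. The 10 markers summed to 503 to 715 TPM in col0 at low and 597 to 983 TPM at high humidity, and to 439 to 659 TPM and 775 to 880 TPM in pip2. These sums overlapped between humidities in col0 and not in pip2. Of the 10, 3 rose and 0 fell in col0, against 14.3% and 15.8% of all tested genes, and 3 rose and 0 fell in pip2, against 12.3% and 11.7%. The sums consist mostly of VGD1, which averaged 580 TPM over the 12 libraries (362 to 837). The next highest marker, PRK2, averaged 34.7 TPM. The sperm cell marker GCS1, the lowest, averaged 0.598 TPM and none of the 10 was listed at 0 in any library. TIP5;1 had log2 fold changes of 0.30 ± 0.18 in col0 (edgeR, adjusted p = 0.229) and 0.31 ± 0.18 in pip2 (adjusted p = 0.222). The part of pollen RNA in these values was not tested.

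Markers of other cells are given beside the high members. Of 8 green tissue markers, 4 rose in col0 and 5 in pip2, with none falling, while 14.3% of all tested genes were called higher in col0 and 12.3% in pip2. Their sum ran from 18989 to 20281 TPM at low and 22129 to 23084 TPM at high humidity in col0, and from 17852 to 21038 and 22299 to 22828 TPM in pip2. Of 7 vascular markers, 3 rose in col0 and 1 in pip2, the latter near the share of all tested genes. Their sums were 205 to 266 and 257 to 330 TPM in col0 and 195 to 253 and 254 to 282 TPM in pip2. Of the 6 tested meristem markers, the receptor gene CLV1 rose in both genotypes (0.55 ± 0.06 and 0.48 ± 0.06), and the other 5 passed the test in neither. The part of cell composition in the TIP results was not tested.

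**Figure D2:**
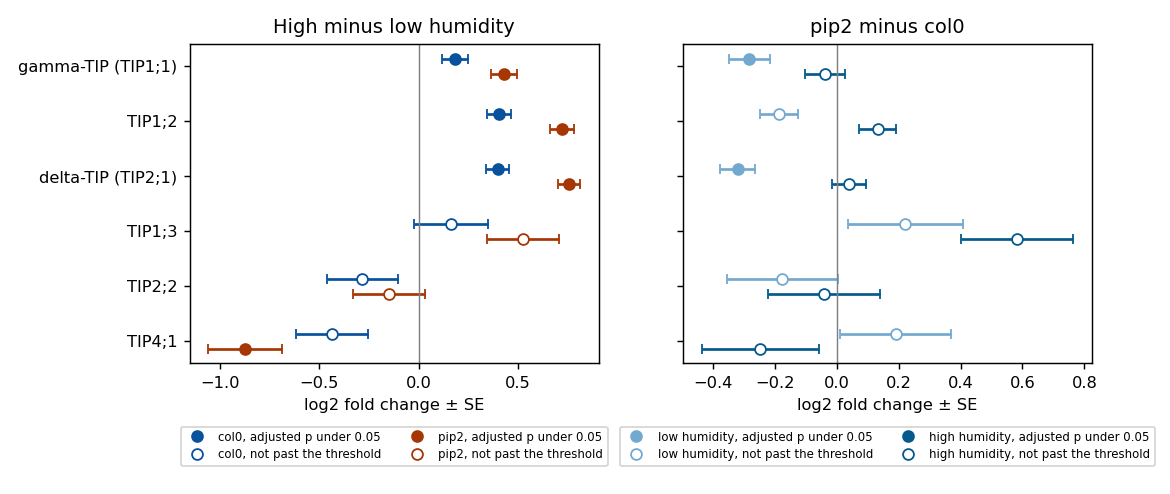
Log2 fold change ± SE from the edgeR fit (horizontal axes) for high minus low humidity in each genotype (left) and pip2 minus col0 at each humidity (right), for the 6 listed TIP genes, with filled points past an adjusted p of 0.05. The 3 abundant genes lie to the right of 0 in both genotypes on the left, from 0.18 to 0.76, and gamma-TIP and delta-TIP lie to the left of 0 at low humidity on the right.

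The summed TIP level followed the 3 abundant genes. It was 2880 ± 76.2 TPM (SD, n = 3) in col0 at low and 3619 ± 110 TPM at high humidity. The ratio of these means was 1.26 ± 0.05, where the error carries over the 2 group SDs. In pip2 the sum was 2458 ± 65.4 TPM at low and 3707 ± 47.0 TPM at high humidity, with a ratio of means of 1.51 ± 0.04, its error formed likewise. The libraries of the 2 humidities were apart in both genotypes.

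The make-up of the sum also differed between humidities. By TPM, the share of gamma-TIP was 37.9% ± 0.78 at low and 34.5% ± 1.55 at high humidity in col0, and 37.1% ± 0.41 and 32.6% ± 1.43 in pip2. The share of delta-TIP was 32.3% ± 0.27 and 34.3% ± 0.72 in col0, and 31.2% ± 0.39 and 34.2% ± 0.22 in pip2. That of TIP1;2 was 27.8% ± 0.89 and 29.6% ± 1.30 in col0, where the ranges overlapped, and 29.2% ± 0.37 and 31.3% ± 1.32 in pip2, where they did not. With counts per kilobase of exon in place of TPM, delta-TIP held the larger share in every library. The share of delta-TIP was then 37.2% ± 0.32 at low and 39.2% ± 0.65 at high humidity in col0, and 35.7% ± 0.32 and 39.0% ± 0.12 in pip2. That of gamma-TIP was 34.3% ± 0.76 and 31.2% ± 1.41 in col0, and 33.9% ± 0.41 and 29.4% ± 1.27 in pip2. On both scales the share of delta-TIP was higher, and that of gamma-TIP lower, in every high-humidity library than in any low-humidity library of the same genotype. As both scales rest on the same reads, this agreement is not separate evidence.

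**Figure D3:**
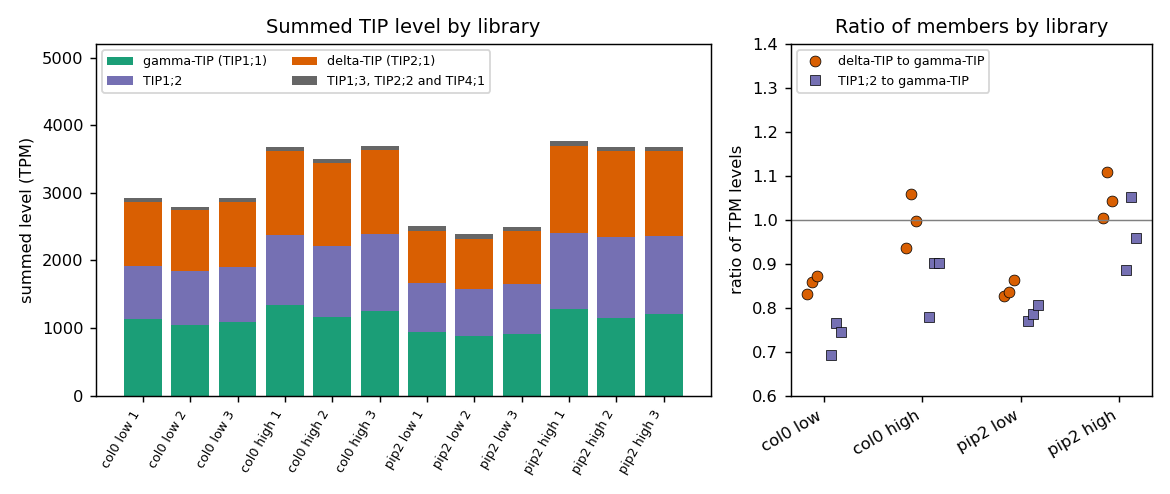
Left, summed TPM of the 6 listed TIP genes (vertical axis, from 0) in each of the 12 libraries, divided by gene. Right, ratio of delta-TIP and of TIP1;2 to gamma-TIP by TPM in each library (points), on an axis that does not start at 0 and with a grey line at 1. The delta-TIP ratio averaged 0.853 and 0.997 in col0 and 0.842 and 1.05 in pip2 at low and high humidity.

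At low humidity delta-TIP and gamma-TIP were lower in pip2 than in col0. These were 2 of 6 members, while 2.79% of all tested genes were called, 1.94% lower and 0.854% higher. In all, 3 of 6 had groups that did not overlap, against 19.6%. Delta-TIP stood at 944, 897 and 953 TPM in col0 and at 776, 738 and 788 TPM in pip2, with no overlap. The log2 fold change was -0.32 ± 0.06, or 1.25-fold lower (edgeR, adjusted p = 0.00558), and it passed the test in all 19 alternatives, with a largest adjusted p of 0.0388.

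Gamma-TIP at low humidity stood at 1136, 1046 and 1094 TPM in col0 and at 939, 882 and 913 TPM in pip2. The groups were apart, and the log2 fold change was -0.28 ± 0.06, or 1.22-fold lower (edgeR, adjusted p = 0.0323). The removal of any 1 of the 6 low-humidity libraries ended this call (adjusted p from 0.0723 to 0.116), as did limma on the TPM values (0.0786), while the log2 fold change stayed between -0.30 and -0.26. TIP1;2 had groups that did not overlap and a log2 fold change of -0.19 ± 0.06 (edgeR, adjusted p = 0.156), which passed with DESeq2 (0.0320). The 3 low members had log2 fold changes between -0.18 and 0.22, with overlapping groups.

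At high humidity 0 of 6 members were called between the genotypes by edgeR, against 0.466% of all tested genes (0.16% higher and 0.306% lower). Of the 6, 2 had an unadjusted p under 0.05, but the share of all tested genes with such a p was not counted. DESeq2 called 0 of 6 as well. In 2 of 6 the groups did not overlap, against 14% of all tested genes. Delta-TIP differed by 0.04 ± 0.06 on the log2 scale (approximate 95% interval -0.07 to 0.15) and gamma-TIP by -0.04 ± 0.06 (-0.16 to 0.09). TIP1;3 was 37.1, 36.3 and 30.4 TPM in col0 and 57.3, 44.0 and 51.7 TPM in pip2. These groups did not overlap, and its log2 fold change of 0.58 ± 0.18 did not pass after adjustment over all tested genes (edgeR, adjusted p = 0.277). TIP1;2 was higher in each pip2 library by CPM (log2 fold change 0.13 ± 0.06, adjusted p = 0.557).

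Whether the humidity response differed between genotypes was tested as an interaction. It was called by edgeR in 0 of 6 members, against 0.352% of all tested genes (0.306% with a positive and 0.0457% with a negative term). Of the 6, 3 had an unadjusted p under 0.05, but the share of all tested genes with such a p was not counted. The largest test statistics were those of delta-TIP, with a response 0.36 ± 0.08 larger in pip2 on the log2 scale (edgeR, adjusted p = 0.0975), and TIP1;2, with 0.32 ± 0.09 (adjusted p = 0.233). DESeq2 called both (adjusted p = 8.76e-06 and 0.0153), so the call depended on the tool. Gamma-TIP had 0.25 ± 0.09 (edgeR, adjusted p = 0.492) and TIP4;1 -0.44 ± 0.26 (adjusted p = 0.733). The fall of the latter in pip2 is therefore not shown to differ from its value in col0.

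The 250 bases before the annotated start of the members that passed the humidity test in pip2 are shown because these genes moved with the same treatment, 3 up and 1 down. The sequences and positions are those of RefSeq's TAIR10.1, while the submitters' notes name TAIR10. They were searched on both strands for the G-box CACGTG, the abscisic acid response core ACGTG, which lies within every G-box, the dehydration response core CCGAC and the evening element. Matches are in capitals, and all 3 matches are on the other strand.
gamma-TIP, chr2:15445044-15445293, plus strand: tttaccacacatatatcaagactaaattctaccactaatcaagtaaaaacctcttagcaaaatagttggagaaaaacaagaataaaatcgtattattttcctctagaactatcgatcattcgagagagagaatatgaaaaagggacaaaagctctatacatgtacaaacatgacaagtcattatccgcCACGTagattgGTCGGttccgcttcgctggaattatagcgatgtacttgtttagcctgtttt
TIP1;2, chr3:9723905-9724154, minus strand: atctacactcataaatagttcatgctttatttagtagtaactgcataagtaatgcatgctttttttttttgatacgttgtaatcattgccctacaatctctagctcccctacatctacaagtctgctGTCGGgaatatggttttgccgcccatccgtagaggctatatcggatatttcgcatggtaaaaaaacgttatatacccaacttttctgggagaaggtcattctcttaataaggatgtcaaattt
delta-TIP, chr3:5505110-5505359, plus strand: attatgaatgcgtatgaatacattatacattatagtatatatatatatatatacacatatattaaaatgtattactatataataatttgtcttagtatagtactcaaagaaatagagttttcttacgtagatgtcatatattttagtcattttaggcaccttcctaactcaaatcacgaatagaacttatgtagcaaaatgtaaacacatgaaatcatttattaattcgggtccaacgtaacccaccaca
TIP4;1, chr2:11012249-11012498, plus strand: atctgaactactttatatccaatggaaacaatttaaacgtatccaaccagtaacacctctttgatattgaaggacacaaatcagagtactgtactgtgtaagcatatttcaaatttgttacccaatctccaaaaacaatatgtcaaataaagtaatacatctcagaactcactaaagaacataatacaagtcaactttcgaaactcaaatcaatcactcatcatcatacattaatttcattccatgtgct
Gamma-TIP held 1 abscisic acid response core and 1 dehydration response core, 62 and 51 bases before the start. The second window held 1 dehydration response core 123 bases before the start. The last 2 windows held none of the searched letters, and none of the 4 held a G-box or an evening element. Over 27443 windows of the same length, the abscisic acid response core occurred in 22.9%, the dehydration response core in 3285 windows, the G-box in 6.49% and the evening element in 2.36%.

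Over the 12 libraries, log2 CPM of TIP1;2 and delta-TIP varied together (Pearson r = 0.974), as did those of gamma-TIP and delta-TIP (r = 0.943). Gamma-TIP and TIP1;2 had an r of 0.857. TIP4;1 ran the other way, with r of -0.80 to -0.86 against these 3 genes. TIP1;3 and TIP2;2 followed none of the 3 closely (r from 0.30 to 0.45 and from -0.36 to -0.17). These values describe libraries that share the 4 conditions. Among 8659 genes with a symbol and a mean of at least 1 CPM, those most like delta-TIP were the beta-amylase gene BMY3 (r = 0.990), the cell wall gene XTH15 (0.988) and BXL2 (0.986). The genes most like TIP1;2 were DIN10 (0.989), TBL45 (0.988) and the abscisic acid receptor gene PYR1 (0.985), and those most like gamma-TIP were HSC70-1 (0.961), IQD32 (0.950) and APR2 (0.948). For TIP1;3 they were CKB2 (0.956), PCK2 (0.940) and GRF12 (0.940), and for TIP2;2 XIK (0.896), SAUR24 (0.883) and TRM11 (0.882).

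The TIPs were set beside other channels, pumps and carriers. Of the 13 plasma membrane PIP aquaporins, 4 rose and 3 fell in col0 at high humidity (median log2 fold change 0.07), while 14.3% of all tested genes were called higher and 15.8% lower. In pip2 6 rose and 0 fell (median 0.30), against 12.3% and 11.7% of all tested genes. At low humidity 4 PIP genes were lower in pip2 than in col0, PIP2;5 among them, against 1.94% of all tested genes, and 0 were higher. Of the 10 tested NIP and SIP aquaporins, the boric acid channel genes NIP5;1 (1.50 ± 0.15) and NIP6;1 (0.56 ± 0.13) rose in col0 and SIP2;1 fell (-0.35 ± 0.09), the last not past the threshold by TPM or without col0 high replicate 3. In pip2 NIP5;1 rose (0.94 ± 0.15) and none fell. These counts were near the shares of all tested genes, 14.3% higher and 15.8% lower in col0 and 12.3% and 11.7% in pip2.

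The proton pumps of the vacuole, which energise the membrane in which TIPs sit, fell more often than they rose. Tested were 24 genes, for subunits of the V-ATPase and the pyrophosphatase AVP1. In col0 16 fell and 1 rose (median log2 fold change -0.21, with 15.8% of all tested genes called lower and 14.3% higher). In pip2 12 fell and 1 rose (median -0.18, with 11.7% of all tested genes called lower and 12.3% higher). In col0 these included VHA-c3 (-0.42 ± 0.05) and VHA-c1 (-0.39 ± 0.06) of the membrane ring, VHA-a3 (-0.38 ± 0.05), the tonoplast form of the largest membrane subunit, and VHA-A (-0.38 ± 0.05), the catalytic subunit. In pip2 they included VHA-B3 (-0.34 ± 0.05), VHA-F (-0.38 ± 0.08), VHA-A (-0.29 ± 0.05) and VHA-c3 (-0.28 ± 0.05).

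Tonoplast solute transporters moved in both directions. Of 19 tested, 5 rose and 5 fell in col0 (median 0.01), against 14.3% and 15.8% of all tested genes. In pip2 6 rose and 4 fell (median -0.01), against 12.3% and 11.7%. The sugar carriers TST2 (-0.42 ± 0.05) and TST1 (-0.50 ± 0.07) and the calcium exchanger CAX1 (-0.72 ± 0.09) fell in col0, and the zinc carrier MTP1 rose (0.45 ± 0.05). In pip2 TST2 (-0.57 ± 0.05), the malate channel ALMT9 (-0.54 ± 0.07) and the sodium and potassium exchanger NHX2 (-0.47 ± 0.06) fell, and MTP1 rose (0.38 ± 0.05).

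**Figure D4:**
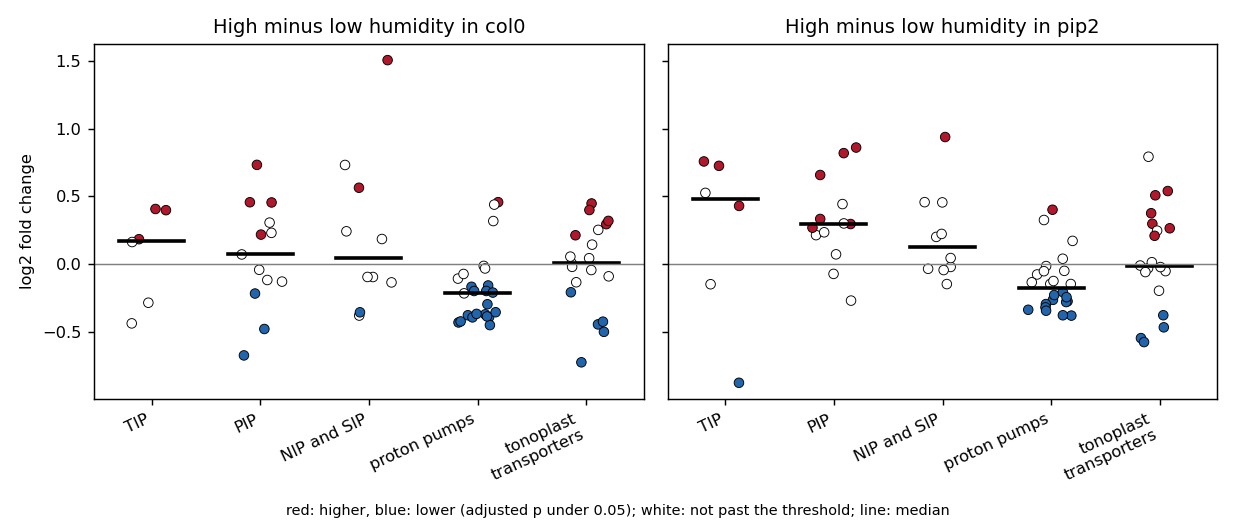
Log2 fold change for high minus low humidity (vertical axis) of the tested members of 5 gene lists in col0 (left) and pip2 (right), with red points past an adjusted p of 0.05 and higher, blue points lower, white points not past it, and a line at each list's median. The medians of the proton pumps were -0.21 and -0.18, and those of the TIPs 0.17 and 0.48.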

How the data were processed

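RNA was sequenced from dissected inflorescence meristems. Per the submitters' processing notes, the tools were Trimmomatic 0.39, HISAT2 2.2.1 and featureCounts 2.0.6, with the TAIR10 build. The deposited counts are whole reads per gene, not normalized, and the deposited TPM table was named so by the authors. The sources used here do not say how TPM was computed. The count table lists no gene at 0 in the first low-humidity library of col0, and 2537 genes had no TPM value.

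Groups came from the sample titles. Counts were filtered with filterByExpr (minimum count 10, total 15), scaled by TMM and tested with the quasi-likelihood test of edgeR 4.0.16 (R 4.3.3) on all 12 libraries, 1 mean per group. Tests were two-sided, and the Benjamini-Hochberg adjustment ran over all 21897 tested genes, with a threshold of 0.05. The fit was checked on simulated data. Non-overlap of groups was judged on CPM, and a correlation used log2 CPM with a prior count of 2. Alternatives were RLE scaling, no filter, a replicate block, DESeq2 1.42.0, the 2 compared groups alone, limma 3.58.1 on log2(TPM + 1) or log2(TPM + 0.1) at a mean TPM of at least 1, and removal of each library. Counts per kilobase of exon were added after the data were seen.

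Replicates differed by more than counting noise (chi-square per degree of freedom 4.85 to 11.4). Deviations of same-numbered libraries correlated weakly between humidities in col0 (r from 0.174 to 0.373) and between genotypes at low humidity (0.158 to 0.205). In the other 2 comparisons they did not all do so. Libraries of unlike number were not compared, so these values cannot show whether libraries are paired. The labels do not pair them. The members and lists were chosen with earlier results of these data known. The rule for named genes took all members, up to 4 genes of each other list with the smallest adjusted p in a humidity comparison, and for each member of at least 10 CPM the 3 genes most correlated with it. PIP genes other than PIP2;5 are given as counts.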

Additional observations from a re-analysis of the deposited data

How the results depend on the processing

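The calls of TIP1;2 and delta-TIP in both humidity responses, of gamma-TIP and TIP4;1 in pip2, and of delta-TIP between genotypes at low humidity held in all 19 alternatives each. The number of genes called at low humidity between genotypes was 974 with a replicate block against 612 without it, and 362 to 713 over the removals of a library. At high humidity it was 276 with the block and 239 with DESeq2 against 102, and 67 to 127 over the removals. For the interaction it was 163 with the block, 185 with DESeq2 and 48 with limma at either pseudocount against 77, and 23 to 64 over the removals. TIP genes called between genotypes at low humidity were 1 of 6 with limma at either pseudocount and 1 to 2 over the removals, and DESeq2 called 2 for the interaction. Among calls on TIP genes, the block changed that of TIP1;3 in pip2 and no other. The cause of these shifts was not tested.

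Values near 0 changed sign on removal of 1 library. The range was -0.0308 to 0.3317 for TIP1;3 in col0, -0.3469 to 0.0179 for TIP2;2 in pip2, and -0.0763 to 0.3022 for the TIP2;2 interaction. Between genotypes at high humidity it was -0.0973 to 0.0253 for gamma-TIP and -0.2421 to 0.1262 for TIP2;2. None of these was past the threshold. Summing TIP2;2 with its relative TIP2;3 was not run, since TIP2;3 is not analysed here. Small counts limit what can be said of TIP4;1.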
